A study of Mus musculus with 12 samples.

Results

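Keratin genes were followed across sorted medullary thymic epithelial cells (mTECs) of mouse. They were taken as every gene whose symbol begins with Krt and a number and that has a probe set with 1 gene symbol in the platform annotation, which leaves out the keratin-associated protein genes. This gave 53 genes of 22154. The groups were mTEChi (MHC class II high) and mTEClo (MHC class II low) cells of 4-week-old C57BL/6 mice with the genotypes Aire+/+, Aire-/-, Brg1+/+ or Brg1-/-, where Aire is the regulator that lets mTECs express genes of peripheral tissues and Brg1 (gene symbol Smarca4) is the motor subunit of SWI/SNF chromatin remodellers. Thymi gave cells negative for DAPI and CD45, positive for Epcam and UEA and low for Ly51. The 4 mTEChi groups had 2 arrays each, numbered 1 and 2, and the 4 mTEClo groups a single array each, numbered 1. How either gene was deleted, in which cells, and how many mice each array pools are not given in the sources used here. Separate animals behind the arrays of a group are not stated either, so a p-value below rests only on the spread among these arrays, and that spread can be technical.

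Keratins form the intermediate filaments of epithelial cells. A filament is built from pairs of 1 acidic type I and 1 basic type II keratin, and it is anchored at desmosomes and hemidesmosomes. The pairs change with cell state: Krt8 and Krt18 mark simple epithelia, Krt5 and Krt14 basal cells, Krt1 and Krt10 the layers above them, and the hair follicle and nail have large sets of their own. In the thymus Krt5 and Krt14 are classical markers of the medulla, Krt8 and Krt18 are found in cortical and some medullary epithelium, and Krt10 marks cornifying medullary cells and Hassall bodies.

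All values below are log2 intensities or differences between them, and tests are limma contrasts with Benjamini-Hochberg adjustment over 22154 genes, called at an adjusted p under 0.05. The 53 genes comprised 27 type I keratins, 25 type II keratins and Krt222, which was put in no role. In RefSeq gene order 27 of them lay on chromosome 11 and 26 on chromosome 15. The 5 with the highest mean over 12 arrays were Krt17 (12.11 to 12.76), Krt18 (11.61 to 12.21), Krt14 (10.57 to 12.10), Krt8 (8.78 to 10.80) and Krt16 (7.08 to 9.98). The 5 with the lowest mean were Krt26 (3.59 to 4.19), Krt87 (3.50 to 5.05), Krt2 (3.82 to 4.76), Krt74 (4.13 to 4.95) and Krt28 (4.20 to 5.34). Probe sets differ in how brightly they read, so these orders are not orders of transcript level. A mean above 5 was reached by 45 keratins, and 8 lay at or below it. No detection call was used, so it is not known which dim keratins lay above background. Krt18 had a second, dimmer probe set with a mean of 6.58, and the brighter one was used. Krt5 was read by no probe set of its own.

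**Figure D1:**
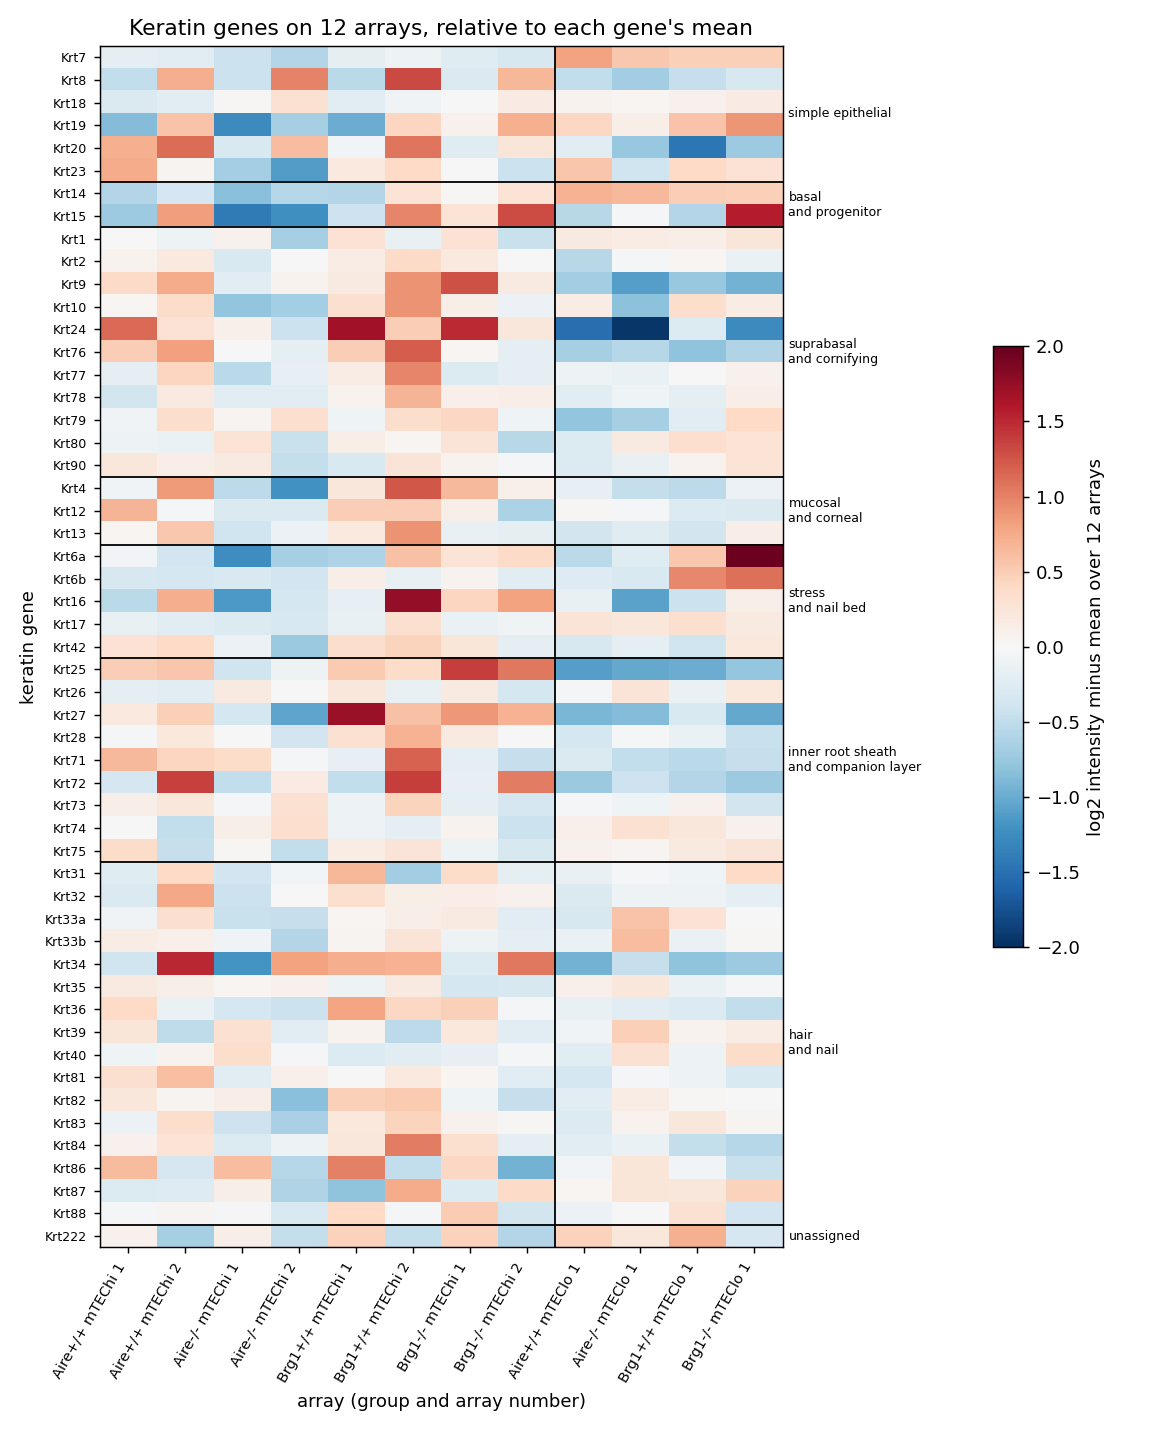
Log2 intensity of 53 keratin genes (rows, grouped by role) on 12 arrays (columns), with each gene's mean over the 12 arrays subtracted; red is above and blue below that mean, and colours end at 2 either way. Krt24 and Krt25 are red in mTEChi and blue in mTEClo on most arrays, Krt14 and Krt7 the reverse, and 37 of 53 keratins read lower on each Aire-/- mTEChi array than on the Aire+/+ mTEChi array of the same number.

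Array medians ran from 5.07 to 5.32, and precision is limited by how few arrays there are. The medians split by array number, at 5.07 to 5.12 on the arrays numbered 2 and 5.25 to 5.32 on those numbered 1. For Aire itself, Aire+/+ mTEChi read 8.04 and 8.80 and Aire-/- mTEChi, by its labels, 9.01 and 9.73. For Smarca4, Brg1+/+ mTEChi read 6.13 and 6.89 and Brg1-/- mTEChi 5.88 and 5.44. Neither difference passed the test (limma, adjusted p = 1 for both). Where these probe sets lie relative to the deleted parts is not known here, so they do not check the genotypes, and groups below are named as labelled. The epithelial marker Epcam read 8.41 to 9.29 on all arrays.

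Promoters are shown first for the keratins that carry the comparisons below. RefSeq promoter windows (GRCm38.p6) were matched for 35 of the 53 keratins. Each sequence is the 80 bases just before the annotated start, 5′ to 3′ on the gene's own strand. Capitals mark TATAAA, the common form of the TATA box, or CCGCCC, which is GGGCGG (the core of a GC box) read on the opposite strand. Krt25, Krt76, Krt27 and Krt24 had higher mean readings in mTEChi, Krt14 and Krt7 in mTEClo, and Krt23 and Krt10 had lower ones on the Aire-/- arrays; the tests of these differences follow.

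Krt25 (chr11:99322952-99323031, minus strand): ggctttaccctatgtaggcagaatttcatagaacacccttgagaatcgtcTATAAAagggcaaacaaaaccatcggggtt
Krt76 (chr15:101892921-101893000, minus strand): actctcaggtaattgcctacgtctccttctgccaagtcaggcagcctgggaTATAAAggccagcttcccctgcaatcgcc
Krt27 (chr11:99351119-99351198, minus strand): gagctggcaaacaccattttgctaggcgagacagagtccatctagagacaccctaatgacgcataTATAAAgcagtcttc
Krt24 (chr11:99285263-99285342, minus strand): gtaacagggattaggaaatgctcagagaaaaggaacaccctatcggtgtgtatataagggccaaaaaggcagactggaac
Krt14 (chr11:100206031-100206110, minus strand): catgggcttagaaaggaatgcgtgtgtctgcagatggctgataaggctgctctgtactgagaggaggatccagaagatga
Krt7 (chr15:101412323-101412402, plus strand): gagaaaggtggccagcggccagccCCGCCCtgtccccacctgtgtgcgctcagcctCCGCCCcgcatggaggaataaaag
Krt23 (chr11:99493121-99493200, minus strand): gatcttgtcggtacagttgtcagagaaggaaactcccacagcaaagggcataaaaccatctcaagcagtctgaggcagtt
Krt10 (chr11:99389365-99389444, minus strand): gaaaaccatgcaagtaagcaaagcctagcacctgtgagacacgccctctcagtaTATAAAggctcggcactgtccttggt

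TATAAA, searched on both strands in the 250 bases before the start, was in 17 of the 35 keratin promoters (48.6%) and in 3872 of 27025 promoters of all genes (14.3%). On the gene's own strand and between 45 and 15 bases before the start, it was in 13 keratin promoters (37.1%) and in 2.57% of all promoters. GGGCGG on both strands was in 2 keratin promoters, Krt7 and Krt75 (5.71%), against 35.4% of all. TGANTCA, the AP-1 type motif, was in 1 (Krt13, 2.86%) against 7.82%. The number of CG pairs in the 250 bases had a median of 4 in keratins and 6 in all genes, and Krt7 had the most among the keratins, at 16. Among the sequences shown, those of Krt25, Krt76, Krt27 and Krt10 hold TATAAA, and those of Krt24, Krt14, Krt7 and Krt23 do not. The TATAAA of Krt27 lies nearer the start than the window of 45 to 15 bases. Only the exact letters were counted, so the similar run tatataag in the Krt24 sequence was not. The motifs and the promoters shown were chosen after the expression values were seen. A match is a run of letters, not a site shown to act.

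The first comparison set wild-type mTEChi (4 arrays) against wild-type mTEClo (2 arrays). Krt25, of the hair follicle's inner root sheath, and the suprabasal keratin Krt76 were higher in mTEChi. Krt24, Krt27, Krt20, Krt36 and Krt86 passed as higher, and the basal keratin Krt14 and the simple-epithelial keratins Krt7 and Krt19 as lower, with the array number as a block and not without it. In the fit without the array number, 2 of 53 keratins passed as higher in mTEChi, Krt25 and Krt76 (1.93% of all genes passed in that direction). As lower, 0 passed (0.632% of all genes). An unadjusted limma p under 0.05 was reached by 14 of 53 keratins and 2841 of 22154 genes. With the array number as a block, 7 keratins passed as higher (4.81% of all genes) and 3 as lower (3.12%). The keratin differences had a median of 0.26 against -0.10 over all genes (the keratin median was 0.06 with all 4 genotypes averaged and 0.05 on the arrays numbered 1 only), and 16 of 53 lay below 0 (30.2%, against 60.4% of all genes).

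Krt25, a type I keratin of the inner root sheath, read 6.35 and 6.41 in Aire+/+ mTEChi, with 6.38 and 6.22 in Brg1+/+ mTEChi. It read 4.75 and 4.86 in the wild-type mTEClo of those lines. All 4 mTEChi arrays lay above both mTEClo arrays, with a difference of 1.53 (SE 0.216, limma, adjusted p = 0.0137). The call was lost without Aire+/+ mTEChi 2 (adjusted p = 0.0512) and in a fit of only the groups compared (adjusted p = 0.0666).

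Krt76, a type II keratin of suprabasal oral and palatal epithelium, read 6.50 and 6.83 in Aire+/+ mTEChi, with 6.50 and 7.22 in Brg1+/+ mTEChi, against 5.35 and 5.21 in mTEClo. The difference was 1.48 (SE 0.267, limma, adjusted p = 0.0342), again with no overlap. Leaving out any of 7 of the 8 mTEChi arrays, all but Brg1+/+ mTEChi 1, ended the call, with adjusted p from 0.0556 to 0.107, and the fit of only the groups compared gave 0.142. With the block the difference was 1.40 (adjusted p = 0.0111), and on the arrays numbered 1 of all genotypes it was 0.91 (adjusted p = 0.02).

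Krt24, a type I keratin of differentiating epithelium, read 8.60 and 7.75 in Aire+/+ mTEChi, 9.15 and 7.96 in Brg1+/+ mTEChi, against 5.95 and 7.19 in mTEClo. The arrays numbered 1 were the higher in both mTEChi groups, and no mTEChi array overlapped mTEClo. The difference was 1.80 (SE 0.487, limma, adjusted p = 0.139) without the block and 2.27 (SE 0.213, adjusted p = 0.000637) with it. Within number 1, mTEChi exceeded mTEClo by 2.65, 2.05, 1.96 and 2.77 in Aire+/+, Aire-/-, Brg1+/+ and Brg1-/-.

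Krt27, the second inner root sheath keratin of this group, read 5.86 and 6.13 in Aire+/+ mTEChi, with 7.38 and 6.24 in Brg1+/+ mTEChi, against 4.75 and 5.35 in mTEClo. Its difference of 1.35 missed the test without the block (limma, adjusted p = 0.133) and passed with it, at 1.57 (adjusted p = 0.0155). Krt20, a keratin of gut and urothelial lining cells, read 6.70, 7.11, 5.93 and 7.06 in wild-type mTEChi and 5.76 and 4.54 in mTEClo. It passed with the block only, at 1.18 (limma, adjusted p = 0.013). These mTEChi values did not overlap those of mTEClo for either gene.

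The hair keratins Krt36 and Krt86 passed with the block alone, at 0.76 (limma, adjusted p = 0.0402) and 0.88 (adjusted p = 0.0256). Without the block Krt86 differed by 0.25 (limma, adjusted p = 0.876), and by -0.12 when the Brg1+/+ mTEChi array numbered 1 was left out. Krt36 read 6.14, 5.62, 6.53 and 6.16 in wild-type mTEChi and 5.59 and 5.48 in mTEClo, and with a block within each line its adjusted p was 0.0683. Krt86 read 6.28 and 6.66 in wild-type mTEChi of number 1, 5.32 and 5.16 in that of number 2, and 5.60 in both mTEClo arrays, so its groups overlapped. Krt34, a hair keratin with a difference of 1.50, did not pass in either fit (limma, adjusted p = 0.452, and 0.3 with the block).

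In the other direction, Krt14, the basal type I keratin, read 10.82 and 11.07 in Aire+/+ mTEChi, with 10.82 and 11.68 in Brg1+/+ mTEChi, against 12.10 and 11.89 in mTEClo. No arrays overlapped, and the difference was -0.90 (SE 0.287, limma, adjusted p = 0.221), or -1.10 (SE 0.202, adjusted p = 0.0142) with the block. Krt7, a type II keratin of simple and glandular epithelium, read 6.21 to 6.33 in wild-type mTEChi and 7.24 and 6.91 in mTEClo. Its difference of -0.82 gave an adjusted p of 0.0917 (limma) and passed with the block at -0.79 (adjusted p = 0.0249). Krt19, a type I keratin of simple and progenitor epithelium, read 5.64 and 5.52 in wild-type mTEChi of number 1, 7.08 and 6.93 in that of number 2, and 6.92 and 7.07 in mTEClo. Its arrays overlapped, and only with the block did it pass, at -1.21 (limma, adjusted p = 0.0221).

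**Figure D2:**
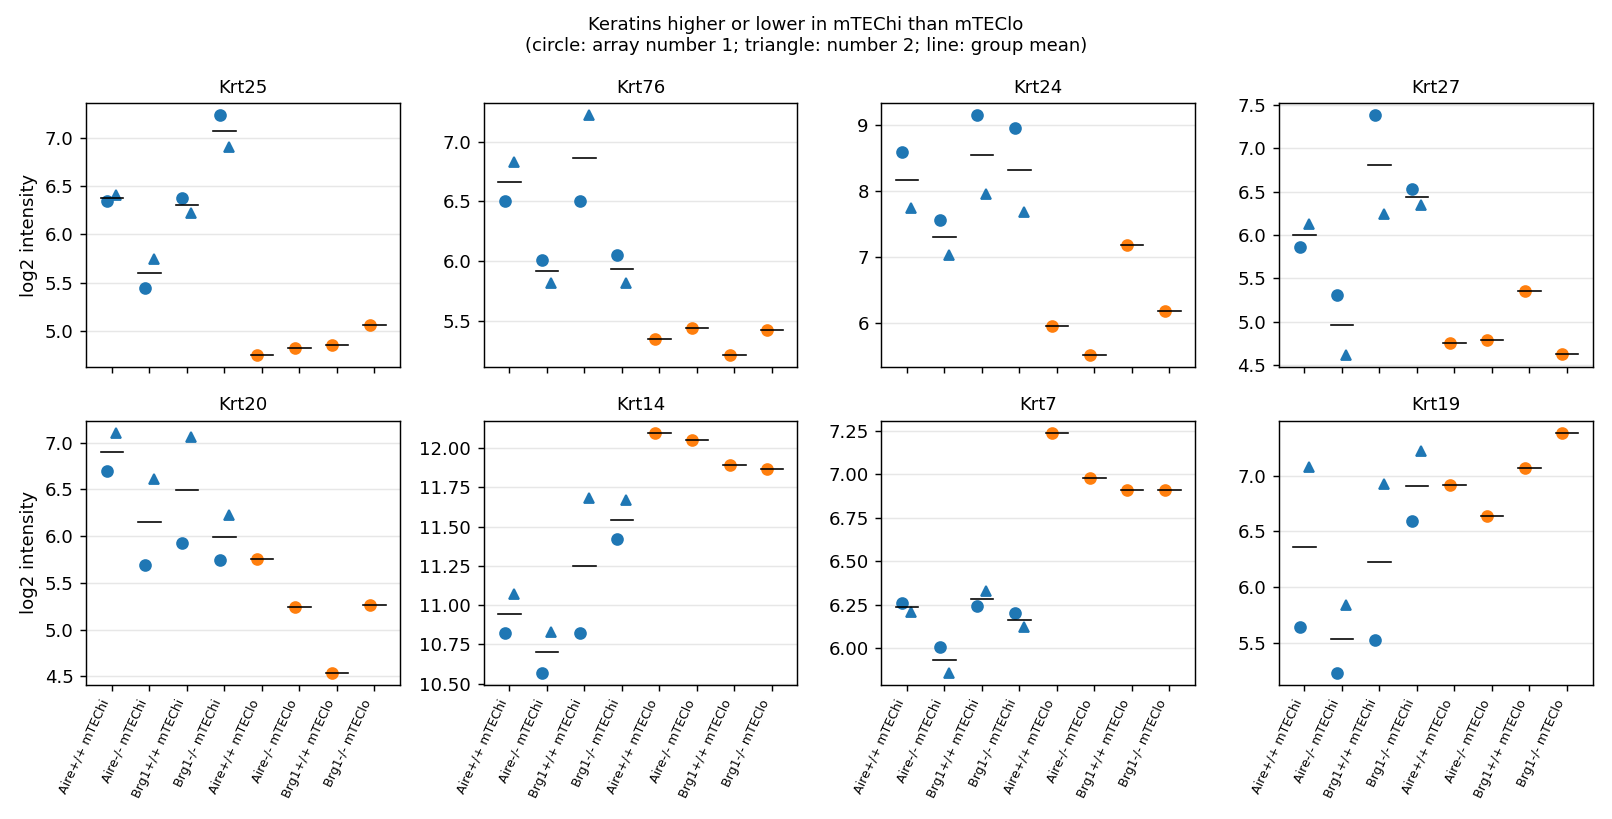
Log2 intensity (vertical axis, a separate scale per gene) of 8 keratins on 12 arrays in 8 groups; blue is mTEChi, orange mTEClo, circles are arrays numbered 1, triangles arrays numbered 2 and lines group means. For Krt25 and Krt76 all 8 mTEChi arrays lie above all 4 mTEClo arrays, and for Krt14 and Krt7 all 8 lie below.

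Across wild types, 20 keratins (37.7%) had every mTEChi array above every mTEClo array (11.4% of all genes), and 5 (9.43%) had every one below (17.7% of all genes). The 5 were Krt14, Krt7, Krt222 (-0.74), Krt74 (-0.36) and Krt18 (-0.28). With all genotypes counted, all 8 mTEChi arrays lay above all 4 mTEClo arrays for Krt25, Krt76 and Krt9 (3.63% of all genes) and below them for Krt14 and Krt7 (5.58% of all genes). The mTEClo arrays all carry number 1, so the 4 mTEChi arrays of that number were also set against them alone. Then 6 keratins lay above (Krt24, Krt25, Krt71, Krt76, Krt86 and Krt9; 6.58% of all genes) and 5 below (Krt14, Krt17, Krt18, Krt19 and Krt7; 9.77% of all genes). These counts across genotypes were added after the values were seen.

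The count of keratins higher in mTEChi differed between the pairs of arrays numbered 1. Each genotype gave 1 mTEChi array against 1 mTEClo array, so genotype and array cannot be told apart. Within number 1, 35 of 53 keratins were higher in mTEChi than in mTEClo in Aire+/+, 32 in Brg1+/+, 29 in Brg1-/- and 17 in Aire-/-. Of 22154 genes, 10137, 9509, 10369 and 10267 were higher, in that order. The medians of the keratin differences were 0.19, 0.14, 0.04 and -0.08, against -0.04, -0.06, -0.02 and -0.03 over all genes. Krt25, Krt24 and Krt76 were nevertheless higher in mTEChi in all 4 genotypes, by 0.62 to 2.16, 1.96 to 2.77 and 0.57 to 1.29.

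By role, all 3 mucosal and corneal keratins had differences above 0 (Krt4 0.91, Krt13 0.79, Krt12 0.54), as did 9 of 11 suprabasal and cornifying, 13 of 16 hair and nail, and 6 of 9 inner root sheath and companion layer keratins. Among simple-epithelial keratins 4 of 6 lay below 0, and among stress and nail bed keratins 3 of 5. Krt10 (0.15), Krt1 (-0.14) and Krt80 (-0.04) differed little and did not pass. In gene order on chromosome 11, Krt24 (1.80), Krt25 (1.53), Krt26 (-0.01), Krt27 (1.35) and Krt28 (0.53) follow each other, while Krt20 (1.55), Krt34 (1.50) and Krt9 (1.28) lie elsewhere in the cluster. Krt26, in the middle, read 3.59 to 4.19 on all 12 arrays.

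Markers of other cells moved between these fractions too. The summed intensity of 6 tuft cell markers was 527 to 922 in mTEChi and 2888 to 4058 in mTEClo. That of 11 measured thymocyte markers of 13 was 598 to 2493 in mTEChi and 447 to 518 in mTEClo. That of 11 measured dendritic, macrophage and B cell markers of 12 was 1345 to 2617 and 739 to 930. By gene, the differences of these 11 between wild-type mTEChi and mTEClo had a median of 0.14, with 9 above 0 and 2 below. Fcer1g was higher (2.15, limma, adjusted p = 0.00757), and Ptprc, which encodes CD45, was lower with the block (-0.97, adjusted p = 0.0251) and not without it. The 10 fibroblast and endothelial markers summed to 985 to 1689 and 1170 to 2470. The 11 mTEC markers summed to 12445 to 17948 in mTEChi and 8423 to 10222 in mTEClo. That list holds the MHC class II genes H2-Aa and H2-Ab1, and the fractions were sorted on MHC class II. H2-Ab1 was the brightest of the list, so this sum is not independent of the sort. By gene, 10 of the 11 lay above 0 and 1 below in wild-type mTEChi against mTEClo, with a median of 1.00. Epcam read 8.48 to 9.23 in wild-type mTEChi and 9.29 and 9.19 in wild-type mTEClo. The 8 cortical markers summed to 1880 to 2400 in mTEChi and 1719 to 2399 in mTEClo; Ccl25 (1.61, limma, adjusted p = 0.0311) and Tbata (1.17, adjusted p = 0.0445) were higher in wild-type mTEChi, and Ctsl (-1.65, adjusted p = 0.00114) and Cxcl12 (-1.10, adjusted p = 0.00727) were lower with the block and not without it. Psmb11, the cortical proteasome subunit, read 5.80 to 6.79 on all arrays. No marker can be called absent without a detection call, and the part of these cells in the keratin differences was not tested. In bulk samples such as these, fewer cells with a keratin and less keratin RNA per cell cannot be told apart.

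Several keratins differed between mTEChi arrays of different number. Krt8, the type II partner of Krt18, read 8.98, 9.05, 8.93 and 9.19 in mTEChi of number 1 and 10.20, 10.46, 10.80 and 10.14 in mTEChi of number 2, in the order Aire+/+, Aire-/-, Brg1+/+ and Brg1-/-. The mTEClo arrays, all numbered 1, read 8.78 to 9.16. The arrays numbered 2 therefore stood above all others, and the difference between wild-type mTEChi and mTEClo was 0.72 without the block and 0.04 with it (limma, adjusted p = 0.686 and 0.947). Krt18, by its brighter probe set, read 11.61 to 12.21 in mTEChi and 11.94 to 12.06 in mTEClo, with no such step. Its dimmer probe set stepped the other way, at 6.50 to 7.15 on mTEChi arrays numbered 1 and 5.19 to 6.19 on those numbered 2. That set read 6.34 to 7.54 in mTEClo.

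Krt72, a type II inner root sheath keratin, read 4.29 to 4.62 on mTEChi arrays numbered 1, 4.95 to 6.17 on those numbered 2 and 4.04 to 4.37 in mTEClo. In the opposite direction, Krt86 read 6.06 to 6.66 on number 1 and 4.71 to 5.32 on number 2. Krt8 and Krt72 were the 2 keratins with every mTEChi array numbered 2 above every one numbered 1 (10.9% of all genes), and Krt1, Krt222, Krt39 and Krt86 were the 4 with every one below (20.7% of all genes). The mean difference was at least 1 in size for 7 keratins (13.2%), against 6.74% of all genes. What the number stands for is not given in the labels.

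**Figure D3:**
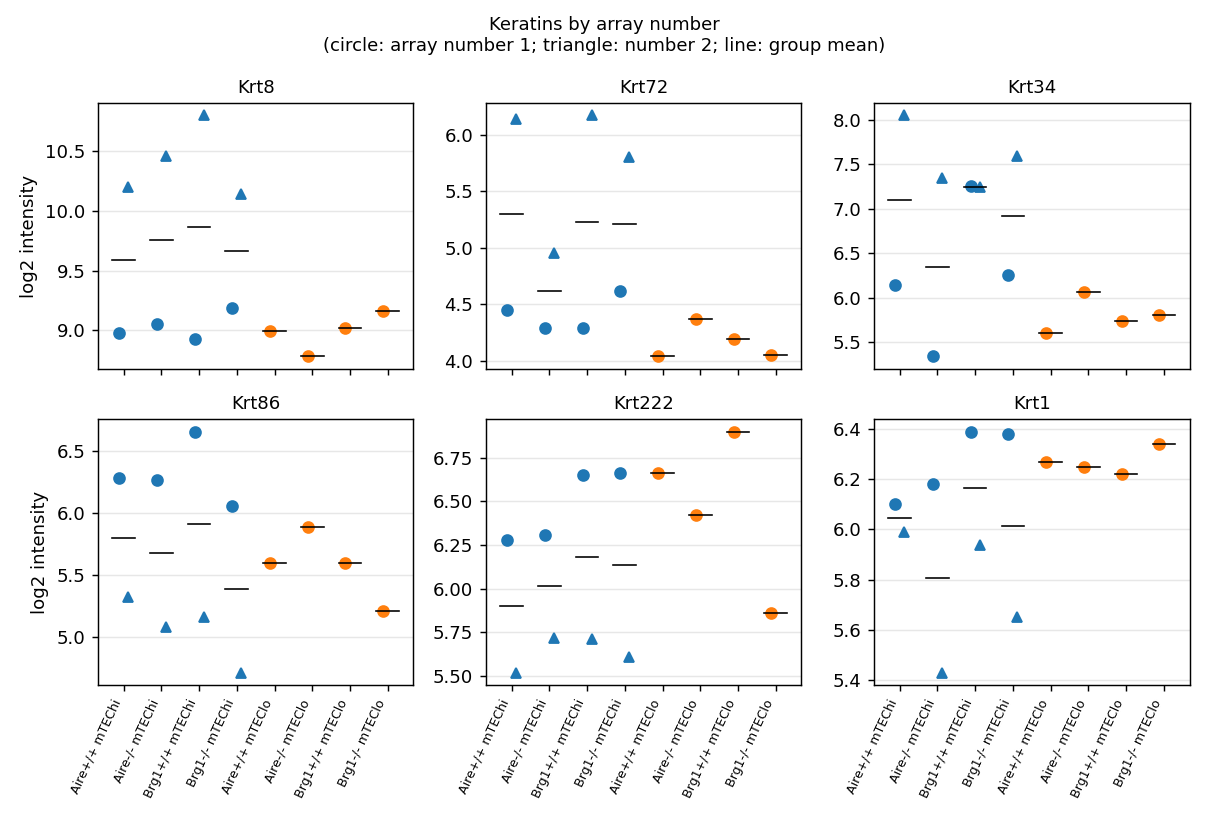
Log2 intensity (vertical axis, a separate scale per gene) of 6 keratins on 12 arrays in 8 groups; blue is mTEChi, orange mTEClo, circles are arrays numbered 1, triangles arrays numbered 2 and lines group means. Krt8 and Krt72 are higher, and Krt86, Krt222 and Krt1 lower, on every mTEChi array numbered 2 than on every mTEChi array numbered 1.

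The next comparison set Aire-/- against Aire+/+ mTEChi (2 arrays against 2). Most keratins read lower on the Aire-/- arrays, by modest amounts, and no single one passed without the array number in the fit. None of the 53 was called lower (0.772% of all genes were) or higher (0.0226% of all genes), by limma at an adjusted p under 0.05. Unadjusted, 8 of 53 keratins and 1209 of 22154 genes had a p under 0.05. With the block, 1 keratin, Krt23, was lower (2.18% of all genes). The keratin differences had a median of -0.37 against 0.06 over all genes, and 43 of 53 lay below 0 (81.1%, against 40.7% of all genes).

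Both Aire-/- arrays lay below both Aire+/+ arrays for 25 keratins (47.2%, against 11.6% of all genes), and above them for 3, Krt18, Krt26 and Krt74 (5.66%, against 15.9% of all genes). The direction was shared by both array numbers. Number 1 had 38 keratins lower with a median of -0.25, and number 2 had 46 lower with a median of -0.46, where all genes had medians of 0.07 and 0.05. The same keratin was lower in both for 37 of 53 (69.8%, against 23.1% of all genes) and higher in both for 6 (Krt8, Krt18, Krt26, Krt39, Krt74 and Krt222). The median without each array in turn ran from -0.45 to -0.27.

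Krt23, a type I keratin of simple and glandular epithelium, read 8.20 and 7.51 in Aire+/+ mTEChi, with 6.78 and 6.33 in Aire-/- mTEChi. The arrays did not overlap, and the difference was -1.30 (SE 0.328, limma, adjusted p = 0.248), or with the block -1.30 (SE 0.238, adjusted p = 0.0286). In mTEClo, with 1 array each, it read 8.01 in Aire+/+ and 7.05 in Aire-/-. In the Brg1+/+ groups it read 7.65 and 7.85 (mTEChi) and 7.86 (mTEClo), close to the Aire+/+ values. In the Brg1-/- groups it read 7.45 and 7.02 (mTEChi) and 7.74 (mTEClo). Both Brg1-/- mTEChi arrays thus lay below both Brg1+/+ mTEChi arrays, with a difference of -0.51 that did not pass, so lower Krt23 was not particular to Aire-/-.

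Krt10, the type I keratin of suprabasal epidermis, read 6.74 and 7.06 in Aire+/+ mTEChi, with 5.90 and 6.01 in Aire-/- mTEChi. In mTEClo it read 6.85 in Aire+/+ and 5.88 in Aire-/-. All 3 Aire-/- arrays lay below all 9 others, which ran from 6.58 to 7.60, and Krt10 was the 1 keratin of 53 with this pattern (0.74% of all genes); 0 keratins had the 3 arrays above the rest (0.645% of all genes). This count was added after the values were seen. The mTEChi difference of -0.95 (SE 0.285) did not pass (limma, adjusted p = 0.441, and 0.0912 with the block). Both Brg1-/- mTEChi arrays (6.82 and 6.58) also lay below both Brg1+/+ mTEChi arrays (7.02 and 7.60). That difference of -0.61 did not pass either, so a lower Krt10 reading in mTEChi was not particular to Aire-/-.

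Krt15, a type I keratin of basal and stem cells, had the largest difference, at -1.37 (SE 0.642, limma, adjusted p = 1). It read 6.55 and 8.10 in Aire+/+, with 5.86 and 6.05 in Aire-/- mTEChi, so most of the difference came from number 2. In mTEClo it read 6.72 in Aire+/+ and 7.24 in Aire-/-, the other way.

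Krt4, a type II keratin of mucosal lining, read 5.14 and 6.06 in Aire+/+, with 4.68 and 4.00 in Aire-/- mTEChi (difference -1.26, limma, adjusted p = 0.733). Krt27 read 5.86 and 6.13 and then 5.31 and 4.61 (difference -1.04, adjusted p = 0.831). Krt16, a keratin of stressed and wounded epithelium, read 7.68 and 8.96 and then 7.08 and 7.88, which overlap. Krt14 (-0.24), Krt17 (-0.12) and Krt8 (0.16) differed little, and Krt18 read 11.61 and 11.68 in Aire+/+, with 11.92 and 12.21 in Aire-/- (difference 0.42, adjusted p = 1).

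**Figure D4:**
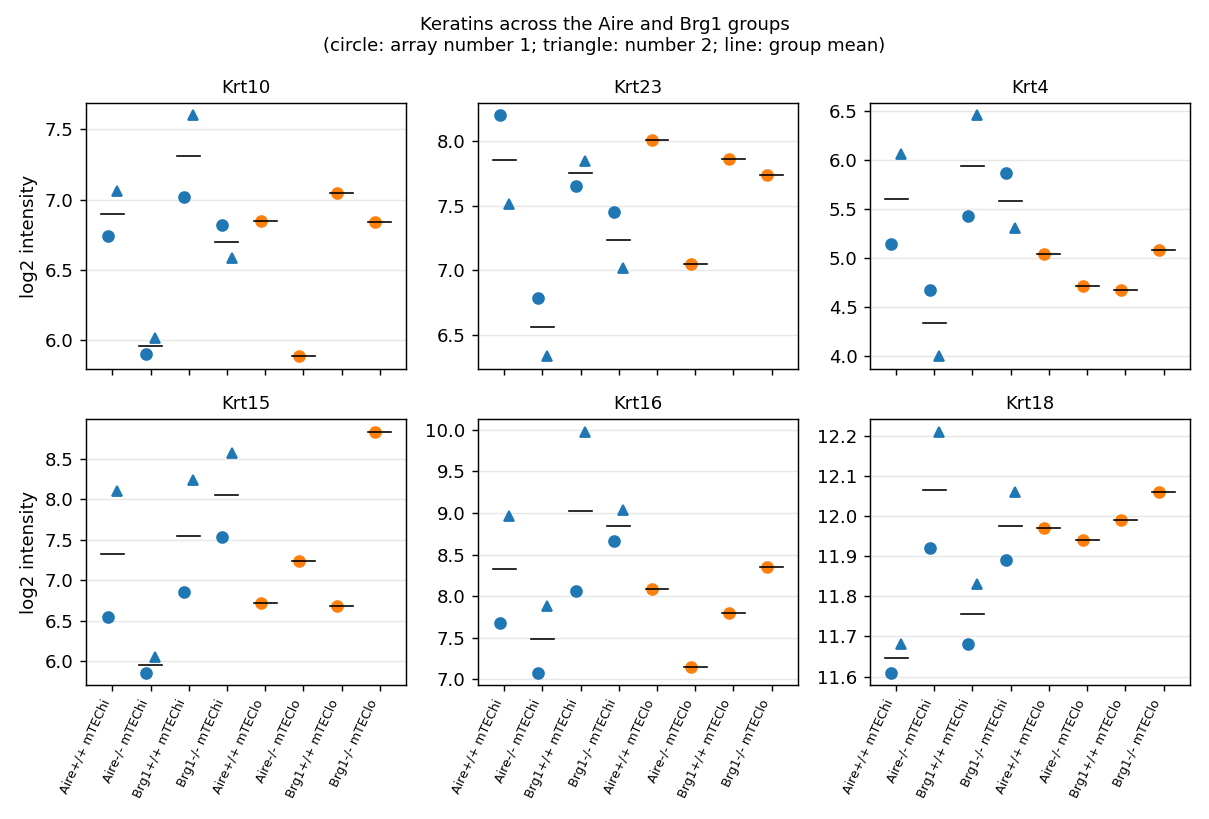
Log2 intensity (vertical axis, a separate scale per gene) of 6 keratins on 12 arrays in 8 groups; blue is mTEChi, orange mTEClo, circles are arrays numbered 1, triangles arrays numbered 2 and lines group means. For Krt10 the 3 Aire-/- arrays read 5.88 to 6.01 and the other 9 read 6.58 to 7.60.

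The lower readings spread over all roles. Below 0 were 9 of 11 suprabasal, 13 of 16 hair and nail, 7 of 9 inner root sheath, 4 of 6 simple-epithelial, all 5 stress and nail bed, all 3 mucosal and corneal and both basal and progenitor keratins. Type I keratins had a median of -0.58 (23 of 27 below 0) and type II of -0.28 (20 of 25). Krt25 and Krt76, which passed as higher in wild-type mTEChi than mTEClo without the block, had differences of -0.78 and -0.75 here. Those that passed as higher only with the block were also below 0: Krt24 (-0.88), Krt27 (-1.04), Krt20 (-0.75), Krt36 (-0.53) and Krt86 (-0.12). The arrays overlapped for Krt86. Both comparisons share the Aire+/+ mTEChi arrays, so these values stand side by side and are no test of each other.

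Summed intensities of 2 marker lists were higher on the Aire-/- mTEChi arrays. The 10 fibroblast and endothelial markers summed to 1651 and 1689 there and to 1080 and 987 in Aire+/+. The 11 dendritic, macrophage and B cell markers summed to 2004 to 2617 there and 1345 to 1570 in Aire+/+, while 11 thymocyte markers gave 598 and 1119 against 602 and 1380. By gene, 6 of the 10 fibroblast and endothelial markers lay above 0, with a median of 0.10, and 6 of the 11 dendritic, macrophage and B cell markers, with a median of 0.03. None of either list passed without the block, and with it Lum (1.39, limma, adjusted p = 0.0211) and Fcer1g (1.18, adjusted p = 0.0449) were higher. Dcn, the brightest of the 10, read 10.23 and 10.24 in Aire-/- and 9.49 and 9.22 in Aire+/+ mTEChi. Both list sums were also higher in Brg1-/- than in Brg1+/+ mTEChi. The fibroblast and endothelial sum was 1206 to 1287 against 985 to 1097. The dendritic, macrophage and B cell sum was 1596 to 2088 against 1491 to 1541. The part of these cells in the keratin differences was not tested.

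In mTEClo, with 1 array per genotype, keratins did not read lower without Aire. The median was 0.11 (0.04 over all genes), and 22 of 53 lay below 0 (41.5%), near the 44% of all genes. Of the 53, 0 differed by 2-fold or more (0.587% of all genes were that much higher and 1.57% that much lower). The lowest differences were those of Krt10 (-0.97) and Krt23 (-0.96), and 15 of 16 hair and nail keratins lay above 0, with Krt33a at 0.89 and Krt33b at 0.74. The difference between the effect of Aire loss in mTEChi and in mTEClo had a keratin median of -0.41 against 0.01 over all genes. All 16 hair and nail keratins lay below 0 in it, but no keratin passed (limma, 0% of all genes were lower), and each mTEClo group had 1 array.

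Keratins also read lower in Brg1-/- than in Brg1+/+ mTEChi, but mainly on 1 pair of arrays. None of the 53 keratins was called (limma, 0% of all genes were called lower). Unadjusted, 2 of 53 keratins and 301 of 22154 genes had a p under 0.05. With the block these were 9 keratins and 1455 genes. The keratin median was -0.19 against 0.00 over all genes, and 40 of 53 lay below 0 (75.5%, against 49.7% of all genes). Both Brg1-/- arrays lay below both Brg1+/+ arrays for 16 keratins (30.2%, against 9.62% of all genes) and above for 3, Krt18, Krt25 and Krt40 (5.66%, against 9.77% of all genes). In number 1, 27 keratins were lower with a median of -0.01, and in number 2, 44 were lower with a median of -0.41. Without Brg1-/- mTEChi 2 the median was -0.08. That array had the highest thymocyte marker sum, 2493, against 768 on Brg1-/- mTEChi 1 and 822 and 847 in Brg1+/+, and the part of thymocytes in the result was not tested.

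Krt76 had the largest difference among the lower ones, with 6.50 and 7.22 in Brg1+/+ mTEChi, with 6.05 and 5.82 in Brg1-/- mTEChi (-0.93, SE 0.308, limma, adjusted p = 1). Krt71, Krt77, Krt82 and Krt12 followed at -0.83, -0.79, -0.78 and -0.75, with no overlap between arrays. Krt25 went the other way. It read 6.38 and 6.22 in Brg1+/+, with 7.23 and 6.90 in Brg1-/- mTEChi, higher in both numbers, by 0.76 (SE 0.25, limma, adjusted p = 1). Krt15 (0.52) and Krt19 (0.68) also read higher in both numbers, and neither passed.

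The Aire and Brg1 lines share no arrays. In mTEChi 35 of 53 keratins lay below 0 in both (66%, against 21.4% of all genes), which is 81.4% of the 43 below 0 without Aire (52.6% for all genes) and 87.5% of the 40 below 0 without Brg1 (43.1% for all genes). Since 81.1% and 75.5% of keratins lay below 0 in each line taken alone, nothing is read from this overlap. The difference between the effects was tested in the same limma model, and 0 keratins passed (0.135% of all genes passed as higher in the Brg1 effect). Unadjusted, 1 of 53 keratins and 815 of 22154 genes had a p under 0.05. Krt25, at -0.78 without Aire and 0.76 without Brg1, had the lowest p, with a difference of 1.54 (SE 0.353, limma, adjusted p = 0.363, and 0.064 with the block). Krt15 differed by 1.89 (SE 0.908, adjusted p = 1).

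**Figure D5:**
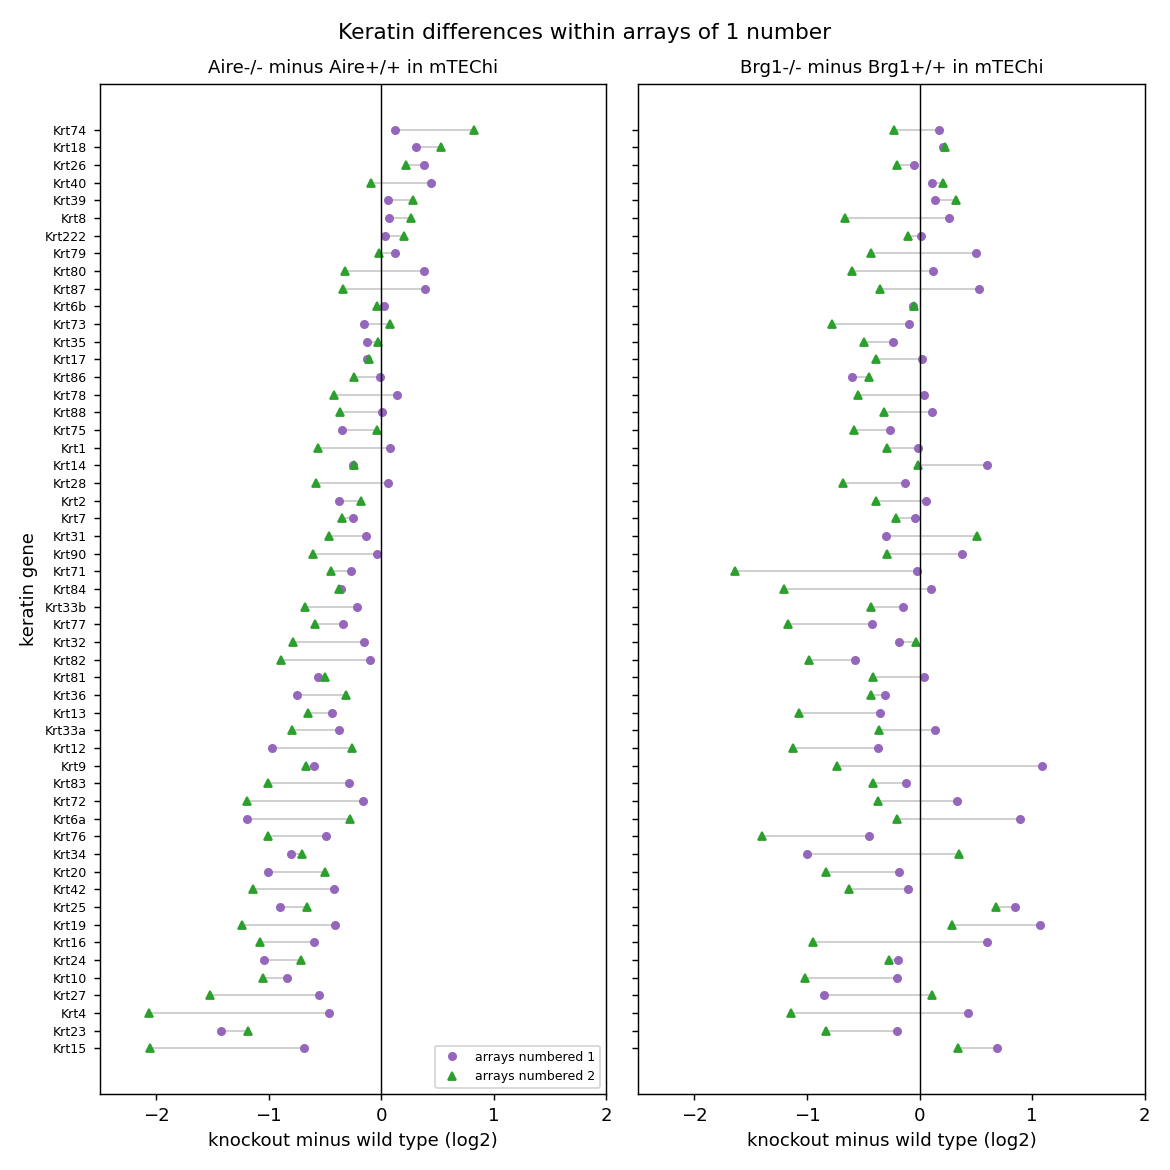
Knockout minus wild-type log2 intensity in mTEChi (horizontal axis) for 53 keratins (rows, ordered by the mean difference in the Aire line), with the Aire line on the left and the Brg1 line on the right; circles are arrays numbered 1 and triangles arrays numbered 2. In the Aire line 37 keratins lie below 0 in both numbers, and in the Brg1 line 24 do.

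In Brg1-/- mTEClo, again 1 array against 1, Krt15 read 8.84 against 6.68 in Brg1+/+ and Krt6a, a keratin of stressed epithelium, 7.35 against 5.92. These were the 2 keratins at least 2-fold higher (1.47% of all genes). Krt222 (5.86 against 6.90) and Krt24 (6.19 against 7.19) were the 2 at least 2-fold lower (1.27% of all genes). No keratin passed the model test (limma), in which each lone array is assumed to vary like the mTEChi groups. Krt15 read 7.54 and 8.58 in Brg1-/- mTEChi, with 6.85 and 8.24 in Brg1+/+ mTEChi.

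Genes that work with keratins were described by list. Of 23 genes for desmosomes and hemidesmosomes, where keratin filaments are anchored, 16 lay below 0 in wild-type mTEChi against mTEClo (60.4% of all genes did) and 0 passed. With the block 2 were lower (3.12% of all genes), the desmosomal cadherin Dsc3 (-0.82, limma, adjusted p = 0.0255) and the hemidesmosomal plakin Dst (-0.83, adjusted p = 0.0322). None of the 23 passed in either knockout, with medians of 0.13 without Aire and -0.18 without Brg1 in mTEChi.

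Of 16 measured genes of 17 for keratin bundling and the cornified envelope, 11 lay below 0 in Aire-/- mTEChi (40.7% of all genes did). Without the block 0 passed (0.772% of all genes passed as lower). Lor, which encodes the envelope protein loricrin, read 7.84 and 8.77 in Aire+/+, with 6.86 and 7.04 in Aire-/- mTEChi, and passed with the block at -1.36 (limma, adjusted p = 0.0409, against 0.572 without it). With the block 2.18% of all genes passed as lower there. Tchhl1, a relative of the inner root sheath protein trichohyalin, was higher in wild-type mTEChi than mTEClo with the block, at 1.38 (limma, adjusted p = 0.00968, against 0.489 without it). With the block 4.81% of all genes passed as higher in that comparison. Of 11 regulators of keratinocytes and hair, among them Trp63 and Foxn1, 0 passed in any of the 7 comparisons, with or without the block.

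Among 15 measured genes of 16 for other intermediate filaments, Nefl, the light neurofilament chain, read 7.10 and 7.20 in Aire+/+ mTEChi, with 4.28 and 4.74 in Aire-/- mTEChi. It fell by 2.64 (SE 0.307, limma, adjusted p = 0.0121), and it was the 1 gene of that list that passed without the block (0.772% of all genes passed as lower in that comparison). It read 6.91 and 6.81 in mTEClo of those genotypes. With the block, the neuronal filament gene Prph was higher (1.08, limma, adjusted p = 0.00633) and Synm, which encodes synemin, lower (-0.75, adjusted p = 0.0341) in wild-type mTEChi than mTEClo. Of all genes, 4.81% passed as higher and 3.12% as lower in that fit.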

How the data were processed

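RNA of 12 samples was labelled with biotin and hybridised to Affymetrix mouse arrays. Deposited values are intensities on a linear scale for 33732 probe sets. Per the submitters' processing notes, the tools were Affymetrix Expression Console, RMA and Transcriptome Analysis Console, without versions or order. The log2 of the deposited intensities was taken, with no pseudocount and no further normalization. The annotation gave 1 symbol to 23491 probe sets, several to 1811 and none to 8430; the brightest probe set per gene by its mean over 12 arrays was used, setting 1337 aside and leaving 22154 genes.

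limma 3.58.1 (R 4.3.3) fitted 1 model of 8 group means to 12 arrays (4 residual degrees of freedom, prior 3.46), two-sided. SE is limma's moderated error. A block for array number common to both lines (3 residual degrees of freedom) or within each line (2) was an alternative. Deviations of equally numbered mTEChi arrays from their group means correlated at 0.552 to 0.657 in all 6 pairs of groups, so numbers were taken to pair arrays; this comes from the data, as the labels do not say it. The fitting steps were also run on simulated arrays with known changes. The simulated noise was set below the spread estimated from these arrays, so that run does not show how the tests perform here.

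The rule for named genes took keratins known from thymic epithelium, those past the test in any fit, up to 5 each way with the largest difference among arrays that do not overlap, and the 5 with the highest and lowest mean; of each list, up to 4 with the lowest adjusted p. Krt9, Krt39, Krt6a, Krt13, Krt33a, Krt33b and Tchhl1, and the genes drawn, were named after their values were seen. The keratins and lists were chosen with earlier results of these data known. Krt5 shares its probe set with Krt6a and was left out, and Krt85 was not analysed here. RefSeq tables (GRCm38.p6) gave gene order and promoters.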

Additional observations from a re-analysis of the deposited data

How the results depend on the processing

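Alternatives were the array-number blocks, 2 array scalings, no dim genes, the mean of all probe sets, only the groups compared, another variance prior and leaving out each mTEChi array. The count of keratins called between wild-type mTEChi and mTEClo, 2, became 10 with the replicate block, 9 with the replicate block within each line, 0 with only the groups compared, 10 on arrays numbered 1 only, 6 with all 4 genotypes averaged and 12 with that average and the block, which was chosen after seeing the data. Without each mTEChi array in turn it ran from 0 to 2. Over all 22154 genes the calls in this comparison also rose, from 567 to 1757 with the replicate block and 1534 with the block within each line. All-gene counts for the other alternatives are not given here, so nothing is read from the rise in keratins called. The Aire count in mTEChi, 0, became 1 with each block, where the count over all genes, 176, became 569 and 531. The blocks changed no other count, and the counts of the other 5 comparisons stayed at 0 in every alternative run. Krt86 between mTEChi and mTEClo turned to -0.12 without Brg1+/+ mTEChi replicate 1 and ran up to 0.63 without the other arrays. The median keratin difference there, 0.26, was 0.05 on arrays numbered 1 only. The causes were not tested. With only the groups compared, the mTEClo contrasts had no residual degrees of freedom and were not run. With 1 or 2 arrays a group, moderate differences of single keratins can miss the threshold, and dim probe sets may lie near background.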

Other observations

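The probe set annotated to both Krt5 and Krt6a, which belongs to no single gene, read 7.52 to 7.75 on the 4 mTEChi arrays numbered 1, 7.94 to 9.75 on those numbered 2 and 9.40 to 9.83 in mTEClo. All mTEChi arrays numbered 1 therefore lay below all mTEClo arrays, which carry the same number. The set annotated to Gm5478 and Krt6b read 4.52 to 5.21 in mTEChi and 4.67 to 5.13 in mTEClo.

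Krt6b, from its own probe set, read 7.00 in Brg1+/+ mTEClo and 7.14 in Brg1-/- mTEClo, and 5.65 to 6.17 on the 8 mTEChi arrays. In the mTEClo of the Aire line it read 5.77 in Aire+/+ and 5.73 in Aire-/-, so both arrays of the Brg1 line stood above the other 10. With 1 array per group this has no replicate check.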
